A study of Mus musculus with 14 samples.

Results

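Bone marrow-derived myeloid cells from PyMT brain metastases (BrM) were set against myeloid cells of the spleen and bone marrow of mice bearing the same tumors, on 8 of the 14 arrays of the series. Members were chosen by their titles, PyMT-Br 1 to 4 for BrM and PyMT-S 1 to 3 with PyMT-BM 1 for the spleen/bone marrow group. PyMT is a mouse mammary cancer line. All 8 arrays came from 14-week-old C57Bl/6J mice with 2 weeks of tumor growth, whose own bone marrow had been ablated by irradiation and replaced with hematopoietic stem cells that carry green fluorescent protein (GFP) under the Ubiquitin C promoter. The cancer cells were implanted intracranially, and cells carrying both GFP and CD11b, the integrin subunit of myeloid cells, were sorted. Thus every group carried the transplant and the tumor, and the groups differed in the tissue from which cells were taken. The methods call the arrays biological replicates, and the sources used here do not say which arrays share a mouse. Titles also carry codes that some arrays of different tissues share, such as P1 for PyMT-Br 3, PyMT-S 1 and PyMT-BM 1. The meaning of these codes is not given. The sort selects granulocytes, monocytes, macrophages and some dendritic and lymphoid cells together, and in such bulk samples fewer cells of a type and less RNA per cell cannot be told apart.

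Monocytes that leave the blood for a tumor differentiate into macrophages, which take up debris through scavenger and Fc receptors, digest it in lysosomes, secrete chemokines that call in further leukocytes and remodel the matrix with metalloproteinases. Neutrophils are made in the bone marrow, where their primary and later granule proteins are transcribed at successive stages of maturation, and mature cells carry the proteins with little of the message. The spleen holds red-pulp macrophages that recycle iron from red cells, together with B cells and stored neutrophils.

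Signals are log2 values that the authors had quantile normalized, so each array had the same distribution, with a median of 4.06. Correlations over all probes ran from 0.950 to 0.961 among the 4 BrM arrays and from 0.880 to 0.909 between BrM and the other arrays. Of 8 genes that check the sort or are general myeloid genes, none passed the test. Their differences were not all small, with 6 positive and 2 negative. They ran from -0.70 for Spi1 to 2.31 for Cebpa, with Csf1r at 1.76. Without PyMT-S 2 and PyMT-BM 1, 1 of the 8 was called higher. Itgam, which encodes CD11b, read 7.94, 7.35, 7.29 and 7.38 in PyMT-Br 1 to 4, 6.35, 8.87 and 5.74 in PyMT-S 1 to 3 and 8.26 in PyMT-BM 1. BrM values thus lay between the spleen arrays, and the difference of 0.18 on the log2 scale (SE 0.62, adjusted p = 0.901) turned to -0.23 when arrays were centred on 10 reference genes.

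PyMT-S 2 stood apart from its label. Over all probes it correlated with PyMT-BM 1 at 0.949, and with PyMT-S 1 and PyMT-S 3 at 0.907 and 0.904, whereas PyMT-S 1 and PyMT-S 3 correlated with each other at 0.942. Against the arrays of mice without tumors, it correlated at 0.938 and 0.937 with naïve bone marrow and at 0.904 and 0.899 with naïve spleen. Along 200 probes that separated naïve spleen, placed at 0, from naïve bone marrow, placed at 1, its median place was 0.855, beside 0.755 for PyMT-BM 1, -0.068 for PyMT-S 1 and 0.008 for PyMT-S 3. With 50 or 500 probes it was 0.821 or 0.924. Only 28 of the 200 probes were higher in naïve bone marrow than in naïve spleen, and the BrM arrays lay at 0.871 to 1.036 on the same scale. A total of 178 of the 200 probes in PyMT-S 2 lay nearer to marrow, compared with 176 in PyMT-BM 1, 3 in PyMT-S 1 and 13 in PyMT-S 3. The control group therefore held 2 arrays with spleen-like values and 2 with marrow-like values, and results are given with and without PyMT-S 2.

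**Figure D1:**
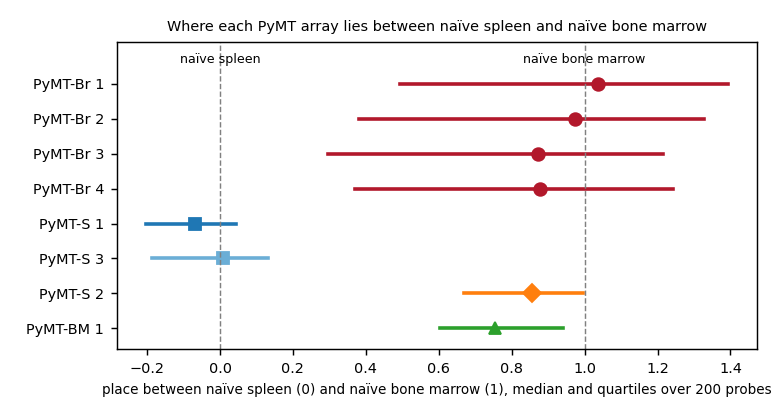
Place of each PyMT array between naïve spleen (0) and naïve bone marrow (1) on the horizontal axis, as the median (symbol) and the quartiles (bar) over 200 probes chosen in the 4 naïve arrays alone. PyMT-S 2, at 0.855, sits with PyMT-BM 1 and not with PyMT-S 1 and PyMT-S 3, and the BrM arrays lie at 0.871 to 1.036.

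Genes called higher in BrM included 13 of 33 chemokine ligands, 5 of 18 macrophage genes and 5 of 19 metalloproteinases, and genes called lower included 9 of 14 late and 6 of 10 primary neutrophil granule genes. Probes with a limma adjusted p below 0.01, out of 45281, counted as called. By this rule 1225 probes (2.71%) were called, 729 higher in BrM (1.61%; 526 genes) and 496 lower (1.1%; 302 genes). All 1225 had BrM values that did not overlap those of the other 4 arrays, which held for 16% of all probes. Differences over 10-fold were found for 88 genes that were higher and 81 that were lower. Centring the arrays on 10 reference genes shifted all differences by -0.42 and took the share of higher calls from 59.5% to 22.3%. One of these, Gusb, was itself called higher (1.99, all 4 probes called), and centring on the other 9 shifted differences by -0.24 and gave 36.9% higher of 1230 calls. The balance of rises and falls thus depends on the scale chosen. Leaving out PyMT-Br 1, 2, 3 or 4 lowered the count to 546, 467, 704 or 498, and leaving out PyMT-BM 1 lowered it to 650. A total of 414 probes, 254 higher and 160 lower, were called with all 8 arrays and without each array in turn.

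The probe with the largest rise was one of Fcrls, an Fc receptor-like gene known for its high level in microglia. Its signal was 13.87, 12.49, 13.34 and 12.67 in the BrM arrays, against 4.13, 3.68 and 3.57 in the spleen arrays and 3.99 in bone marrow, higher by 9.25 on the log2 scale (SE 0.32; adjusted p = 1.18e-06 from limma). Its other probes rose by 7.99 and 6.80. The spleen and bone marrow values lay at the array median, so array background bounds how large a rise could be measured. Arg1, the arginase of alternatively activated macrophages, read 12.89, 13.16, 12.25 and 13.01 in BrM and 2.98, 3.85, 5.52 and 3.34 in the others (8.91, SE 0.50, adjusted p = 1.2e-05), with a second probe at 8.70, so the order of these genes is not settled. The monocyte-attracting chemokines Ccl12 (7.40, SE 0.39) and Ccl7 (7.40, SE 0.52), the endocytic adaptor Dab2 (6.89, SE 0.28), Olfml3 (6.71, SE 0.23) and the membrane-bound metalloproteinase Mmp14 (6.60, SE 0.48) followed. The remaining leaders were the chemokine Ccl8, the mineralization inhibitor Mgp, the collagenase Mmp13, Emp1 and Prune2, with differences from 6.48 to 5.53. None of these 12 lost its call when any 1 of the 8 arrays was left out. The second probe of Ccl7 rose by 4.51. A dim probe of Dab2 read -0.47 and the other 3 probes of Prune2 read from -0.28 to 0.29, none of them called, so for Prune2 the rise rests on 1 probe of 4.

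**Figure D2:**
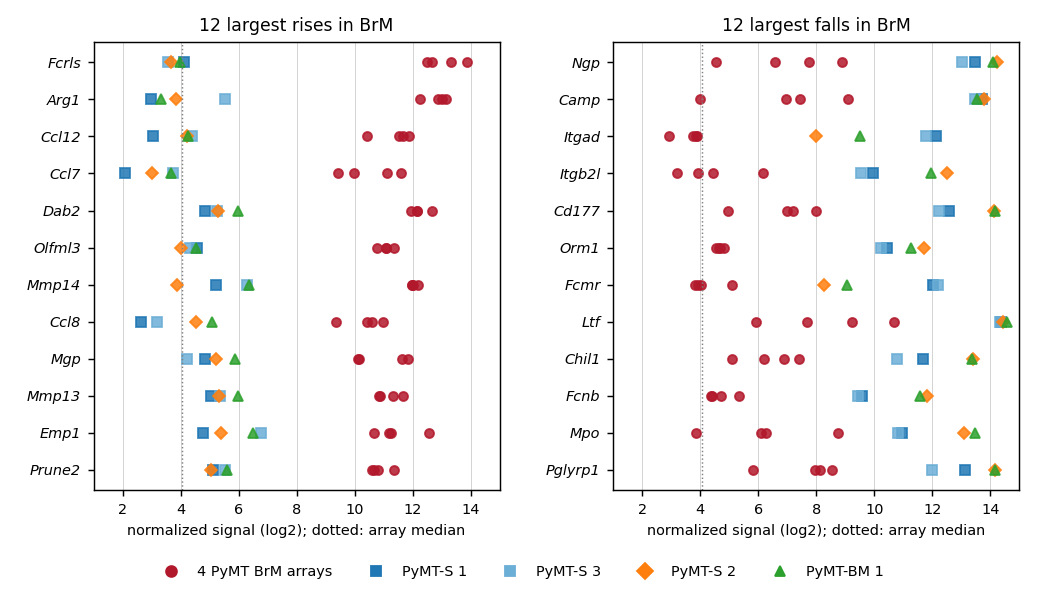
Normalized signal (log2, horizontal axis) of the 12 genes with the largest rises (left) and falls (right) in each of the 8 arrays, with circles for the 4 BrM arrays and a dotted line at the array median of 4.06. Genes were picked among called probes without overlap between BrM and the other arrays, so BrM circles lie clear of the other symbols by selection. Fcrls lies at 12.49 to 13.87 against 3.57 to 4.13. The BrM values of Ngp and Camp are spread far wider than those of Fcrls or Arg1.

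Promoter sequence is shown for the 4 largest rises that have a single promoter listed (RefSeq, GRCm38.p6). Each run is the 250 bases before the start, with the motifs searched in capitals on either strand. They were AP-1, written TGANTCA, and the PU.1 motif of myeloid genes, written GAGGAA. The E-box was written CACGTG, and the hypoxia element ACGTG lies within it. The last were the promoter elements TATAAA and CCAAT. The regions are chr3:87263525-87263774 on the minus strand for Fcrls, chr11:82101595-82101844 on the plus strand for Ccl12, chr3:103738002-103738251 on the minus strand for Olfml3 and chr14:54431348-54431597 on the plus strand for Mmp14.
Fcrls: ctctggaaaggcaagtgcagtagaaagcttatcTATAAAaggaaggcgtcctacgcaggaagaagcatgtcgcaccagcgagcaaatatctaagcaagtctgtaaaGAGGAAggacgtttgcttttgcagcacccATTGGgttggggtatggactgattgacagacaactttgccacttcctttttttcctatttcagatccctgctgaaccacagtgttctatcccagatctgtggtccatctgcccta
Ccl12: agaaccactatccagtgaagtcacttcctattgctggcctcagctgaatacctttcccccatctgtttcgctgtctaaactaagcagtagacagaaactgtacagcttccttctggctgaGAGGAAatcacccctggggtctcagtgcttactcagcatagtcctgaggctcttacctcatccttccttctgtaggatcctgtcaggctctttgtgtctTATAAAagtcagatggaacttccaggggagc
Olfml3: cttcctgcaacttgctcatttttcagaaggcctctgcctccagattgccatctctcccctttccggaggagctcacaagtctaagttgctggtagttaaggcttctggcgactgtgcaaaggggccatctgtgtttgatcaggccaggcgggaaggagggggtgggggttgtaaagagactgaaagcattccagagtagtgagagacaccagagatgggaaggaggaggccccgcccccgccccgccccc
Mmp14: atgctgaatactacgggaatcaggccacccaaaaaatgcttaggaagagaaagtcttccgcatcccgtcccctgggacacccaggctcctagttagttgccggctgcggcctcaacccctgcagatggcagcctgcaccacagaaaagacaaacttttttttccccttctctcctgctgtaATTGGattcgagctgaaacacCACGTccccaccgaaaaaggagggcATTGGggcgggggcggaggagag
The PU.1 letters, known from the myeloid factor of that name, lay 144 bases before the start of Fcrls and 130 before that of Ccl12, and are found in 23.3% of all 32851 promoters. TATA, found in 12.4% of promoters, began 31 bases before the start of Ccl12 and 217 before that of Fcrls. The window of Mmp14 held the hypoxia element 48 bases before the start (16.6% of promoters) and CCAAT at 69 and 23 bases (33.8%), and that of Olfml3 held none of the 6 motifs. PU.1 letters were in 28.6% of the 545 promoters of genes called higher and 26.0% of the 331 of genes called lower. AP-1 letters were in 7.89% of these and in 5.44% of the latter, beside 6.75% of all promoters.

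Genes that the study considered as sources of tumor-directed promoters were called higher in BrM for each of the 8 analysed. Spp1 was not analysed here, and as the list was picked on these arrays its count is not independent evidence. Besides Arg1, Ccl7, Dab2, Mmp14 and Emp1 (5.56), they were the chemokine Cxcl16 (4.92, SE 0.53), the lipid receptor Trem2 (4.89, SE 0.47) and the interferon-induced chemokine Cxcl10 (4.06, SE 0.61). Mmp14 read 12.01, 11.98, 12.17 and 11.97 in BrM, the narrowest range of the 8 genes, and 5.22, 3.88, 6.28 and 6.35 in the others. A second, dimmer probe of Mmp14 differed by 0.66 (adjusted p = 0.564). Trem2 read 11.66, 11.42, 11.38 and 11.34 in BrM and 5.29, 6.70, 6.31 and 7.95 in the others, highest in PyMT-BM 1. For Cxcl10 the call ended without PyMT-Br 2, PyMT-Br 4, PyMT-S 2, PyMT-S 3 or PyMT-BM 1, with an adjusted p of at most 0.0152, and its second probe was not called (1.51, adjusted p = 0.016).

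Among macrophage genes, 5 of 18 measured were called higher and none lower, with a median difference of 1.89 beside -0.01 over all probes. The scavenger receptor Msr1 read 8.44, 8.46, 8.04 and 8.23 in BrM and 4.40, 4.57, 4.88 and 4.83 in the others (3.63, SE 0.22, adjusted p = 2.06e-05). Siglec1, the sialic acid receptor of tissue macrophages, rose by 2.95 (SE 0.40), a call that ended without PyMT-Br 2 or PyMT-Br 4 (adjusted p at most 0.0109), and the high-affinity Fc receptor Fcgr1 by 2.90 (SE 0.26). The apolipoprotein Apoe rose by 2.86 (SE 0.43), not called without any 1 BrM array or PyMT-BM 1 (adjusted p at most 0.0151), and Cd14 was the fifth. Without PyMT-Br 2 or PyMT-Br 4 the count of the list was 2, without PyMT-Br 3 or PyMT-BM 1 it was 3, and without PyMT-S 2 it was 4. The brightest probe of Adgre1, which encodes F4/80, differed by 1.29 (SE 0.27, adjusted p = 0.0171), and its others by 1.79 (adjusted p = 0.0171) and 3.00, of which the last was called (adjusted p = 0.000748). Mrc1, the mannose receptor, differed by 1.48 (SE 0.50, adjusted p = 0.112). The complement gene C1qa read 12.57, 12.65, 12.61 and 12.55 in BrM, 10.81, 8.32 and 11.17 in the spleen arrays and 9.58 in bone marrow. Its BrM values lay above all 4 others, but it did not pass the test (2.62, SE 0.53, adjusted p = 0.0157).

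Genes known for their high level in microglia were higher as well, although the cells carried the GFP of the transplant. Of 10 measured, 5 were called higher: Fcrls, Olfml3, Tmem119, Cx3cr1 and Gpr34. Tmem119 read 10.06, 10.23, 10.60 and 9.98 in BrM against 4.52, 4.69, 4.53 and 5.32 (5.45, SE 0.26, adjusted p = 5.16e-06). Cx3cr1, the fractalkine receptor, which monocytes carry as well, rose by 4.32 (SE 0.34, adjusted p = 0.000124). P2ry12, which marks resident microglia, read 6.33, 5.76, 5.29 and 5.55 in BrM and 4.78 to 5.16 in the others (0.72, SE 0.26, adjusted p = 0.138). The summed linear signal of the list ran from 13900 to 23500 in BrM and from 1070 to 1690 in the others. The part of brain-resident cells in these values was not tested. Of monocyte genes, 1 of 11 was called, the matrix protein Fn1 (3.58, SE 0.37, adjusted p = 0.000607).

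Genes of uptake and digestion rose in part. Of 18 phagocytic receptors and their ligands 6 were called higher and none lower, among them Stab1, a scavenger receptor, Fcgr2b, the inhibitory Fc receptor, and Msr1. Stab1 read 11.14, 10.60, 11.27 and 11.66 in BrM and 6.56 to 7.09 in the others (4.28, SE 0.27, adjusted p = 2.44e-05), although 1 of its 3 probes differed by 0.73 only (adjusted p = 0.278). Fcgr2b rose by 3.40 (SE 0.27) and Gas6, a ligand of the receptor Axl, by 2.75 (SE 0.45), the latter not called without PyMT-Br 1, PyMT-Br 2, PyMT-Br 3, PyMT-S 3 or PyMT-BM 1 (adjusted p at most 0.0216). Of 22 lysosomal genes 5 were called higher, led by the protease legumain, Lgmn (3.12, SE 0.56), cathepsin L, Ctsl (2.43, SE 0.30), and cathepsin A, Ctsa (2.30, SE 0.26). For Ctsa 1 probe of 5 was called, and the others differed by 0.68 to 1.43. Lgmn was the least stable of these, with a call that ended without any 1 BrM array or PyMT-BM 1 (adjusted p at most 0.0334), and the list gave 3 calls without PyMT-Br 1, PyMT-Br 2 or PyMT-BM 1 and 2 without PyMT-Br 4.

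**Figure D3:**
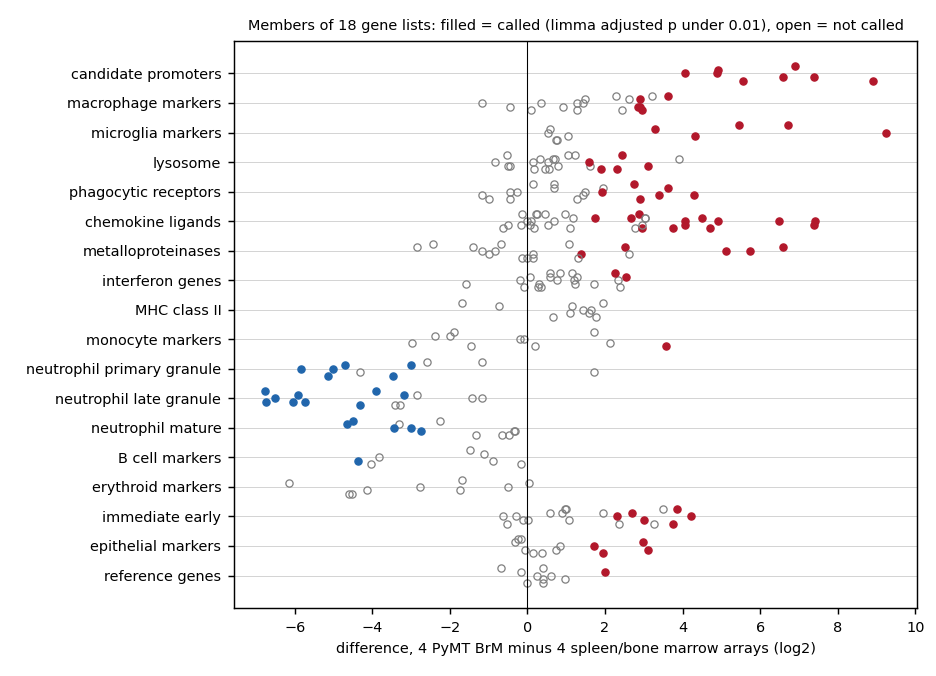
Difference between the 4 BrM and the 4 spleen/bone marrow arrays (log2, horizontal axis) for each measured member of 18 gene lists, filled where called and open where not. Filled points of the chemokine and metalloproteinase lists all lie to the right of 0, and those of the 3 neutrophil lists, 6, 9 and 5 genes, all to the left.

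Chemokine ligands gave the highest number of rises, from the longest list. Of 33 measured, 13 were called higher and none lower, with a median difference of 1.75, and 10 were called without PyMT-S 2. These ligands attract monocytes (Ccl2, Ccl7, Ccl8, Ccl12), lymphocytes (Cxcl9, Cxcl10, Cxcl16, Ccl17) and other leukocytes (Ccl3, Ccl4, Ccl9, Cx3cl1, Cxcl14). Ccl7 read 11.59, 9.97, 11.11 and 9.43 in BrM and 2.09, 3.01, 3.73 and 3.67 in the others. Ccl2 differed by 3.75 (SE 0.44, adjusted p = 0.00113), Ccl3 by 4.07 (SE 0.48) and Ccl17 by 4.50 (SE 0.37). Cxcl9, an interferon gamma target, read 12.99, 12.94 and 12.81 in PyMT-Br 2 to 4 but 10.07 in PyMT-Br 1, against 6.98 to 8.07 in the others (4.71, SE 0.60, adjusted p = 0.00174). Of 17 chemokine receptors only Cx3cr1 was called higher and only Cxcr1, a neutrophil receptor, lower (-3.00, SE 0.41), the latter not without PyMT-Br 2 (adjusted p = 0.0116).

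Of 19 metalloproteinases 5 were called higher, Mmp14, Mmp13, Mmp2, Adam9 and Adam17, and none lower. The list as a whole was divided, with 10 positive and 9 negative differences and a median of 0.14, which was -0.28 after centring on reference genes. Mmp13 read 11.32, 11.66, 10.85 and 10.88 in BrM and 5.06 to 5.99 in the others (5.74, SE 0.28, adjusted p = 5.87e-06), although 1 of its 3 probes differed by -0.20 and was not called. The gelatinase Mmp2 read 9.05, 9.81, 9.69 and 8.90 against 3.95 to 4.50 (5.13, SE 0.28, adjusted p = 1.04e-05). Their inhibitor Timp1 rose by 3.85 (SE 0.33, adjusted p = 0.00021). The list gave 3 calls without PyMT-Br 1, PyMT-Br 2, PyMT-Br 4 or PyMT-BM 1. Of 16 matrix genes 4 were called higher, Col6a1 (4.41, SE 0.48), Fn1, Col14a1 (2.91, SE 0.46) and Tgfbi, and 2 were called without PyMT-Br 1, PyMT-Br 2, PyMT-Br 4 or PyMT-S 2. Col14a1 was no longer called without any 1 of PyMT-Br 1, PyMT-Br 2, PyMT-Br 4 or the 3 spleen arrays (adjusted p at most 0.0196). Among growth factors Pdgfa (4.13, SE 0.34, adjusted p = 0.000178) and Gas6 were called, 2 of 19. Of 17 adhesion genes 3 were called higher, with the junction protein F11r (2.81, SE 0.34) and the integrins Itgb5 (2.94, SE 0.42) and Itga5 (1.53, SE 0.23). Itgb5 lost its call without any 1 BrM array or PyMT-BM 1 (adjusted p at most 0.0131), and Itga5 without PyMT-Br 2, PyMT-Br 3, PyMT-Br 4 or PyMT-BM 1 (adjusted p at most 0.0185), which left 1 call in the list without PyMT-Br 2, PyMT-Br 3, PyMT-Br 4 or PyMT-BM 1.

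Genes of alternative activation and of arginine and cholesterol use were mixed. Of 20 alternative activation genes 5 were called higher, Arg1, Ch25h, Ccl17, Egr2 and Msr1, and 1 lower, Pparg. Ch25h, which hydroxylates cholesterol, read 9.14, 8.58, 9.29 and 8.28 in BrM and 3.53 to 4.14 in the others (4.98, SE 0.28, adjusted p = 1.2e-05). Pparg, the lipid-sensing nuclear receptor, read 5.63 to 6.57 in BrM and 8.46, 7.11, 8.15 and 7.88 in the others (-1.83, SE 0.33, adjusted p = 0.00898), a call that leaving out any 1 array but PyMT-S 2 ended (adjusted p at most 0.0323). The arginine transporter Slc7a2 rose by 2.66 (SE 0.24, adjusted p = 0.000279), while the mitochondrial arginase Arg2 fell (-2.35, SE 0.41, adjusted p = 0.00816), not called without any 1 array other than PyMT-S 3 (adjusted p at most 0.0302). Nos2, the inducible nitric oxide synthase that competes for arginine, lay near the array median in every array (2.75 to 4.27). Besides Ch25h, the cholesterol carrier Npc2 (1.59, SE 0.25) and the synthesis enzyme Lss (1.53, SE 0.28) were called, but leaving out any 1 array ended the call of Lss (adjusted p at most 0.0359), and any 1 but PyMT-Br 3 that of Npc2 (adjusted p at most 0.0207). Trem2, Apoe and Fabp5 (1.65, SE 0.28) were called among 15 genes of lipid-associated macrophages, the call of Fabp5 ending without any 1 array (adjusted p at most 0.024), which left 1 call in the list without PyMT-Br 2, PyMT-Br 3, PyMT-Br 4 or PyMT-BM 1. The checkpoint ligand Cd276 rose by 4.31 (SE 0.33, adjusted p = 0.000112), the only call among 13 checkpoint genes. No gene of 10 in MHC class II was called. Their mean level was 11.25 to 11.65 in BrM, 11.99 and 11.65 in PyMT-S 1 and PyMT-S 3, and 9.27 and 9.60 in PyMT-S 2 and PyMT-BM 1.

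Neutrophil genes were lower in BrM at every stage of maturation that was listed. Late granule genes gave 9 of 14 called lower, primary granule genes 6 of 10 and genes of mature neutrophils 5 of 12, with none called higher and medians of -4.11, -3.89 and -2.49. Ngp, a granule protein, read 4.53, 6.58, 8.88 and 7.76 in PyMT-Br 1 to 4 and 13.47, 14.22, 13.01 and 14.09 in the others (-6.76, SE 0.77, adjusted p = 0.00097). Camp, the cathelicidin, read 3.99, 6.97, 9.10 and 7.43 against 13.48 to 13.78 (-6.75, SE 0.84, adjusted p = 0.00152). Both were lowest in PyMT-Br 1 and highest in PyMT-Br 3, where they still lay over 4 log2 units below the controls. Cd177 (-6.50, SE 0.66), Chil1 (-5.93, SE 0.66) and Pglyrp1 (-5.75, SE 0.65) kept their calls without any 1 array. Lactoferrin, Ltf (-6.05, SE 0.81), did so but for PyMT-Br 2 (adjusted p = 0.0108).

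The primary and mature lists were less stable. Mpo, the myeloperoxidase of primary granules, read 3.87, 6.26, 8.76 and 6.11 in BrM and 10.95, 13.11, 10.83 and 13.47 in the others, where PyMT-S 2 and PyMT-BM 1 were the highest (-5.84, SE 0.96, adjusted p = 0.00583). Its call ended without PyMT-Br 1, PyMT-Br 2, PyMT-Br 4, PyMT-S 1, PyMT-S 2 or PyMT-BM 1 (adjusted p at most 0.022). The elastase Elane (-5.02, SE 0.74) lost its call without PyMT-Br 1, PyMT-Br 2, PyMT-Br 4 or PyMT-BM 1, and the maturation factor Cebpe (-5.13, SE 0.77) without the same arrays or PyMT-S 2 (adjusted p at most 0.016 and 0.0157). Retnlg (-3.43, SE 0.51) was likewise not called without PyMT-Br 1, PyMT-Br 2, PyMT-Br 4, PyMT-S 2 or PyMT-BM 1 (adjusted p at most 0.0153). The primary list gave 1 call without PyMT-Br 1, PyMT-Br 2 or PyMT-Br 4, 2 without PyMT-BM 1 and 3 without PyMT-S 2. The mature list gave 1 without PyMT-Br 1 or PyMT-Br 4, none without PyMT-Br 2, 2 without PyMT-S 2 or PyMT-BM 1 and 3 without PyMT-S 1.

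Large falls were also found outside the neutrophil lists, and further granule genes are given here with them. The integrin Itgad, carried by splenic red-pulp macrophages, read 2.94, 3.86, 3.88 and 3.74 in BrM, 12.12, 7.98 and 11.79 in PyMT-S 1 to 3 and 9.53 in bone marrow (-6.75, SE 0.80, adjusted p = 0.00117). The iron exporter Slc40a1 read 7.88 to 8.51 in BrM and 13.56, 12.39, 12.99 and 12.98 in the others (-4.86, SE 0.28, adjusted p = 1.47e-05), with a second probe below the array median that differed by 0.36 (adjusted p = 0.689). Among 12 iron genes 1 was called higher, the iron oxidase Cp (2.69, SE 0.31), and 2 lower, Slc40a1 and Lcn2. Lcn2 is a siderophore-binding granule protein (-4.32, SE 0.64) and was not called without PyMT-Br 2, PyMT-S 1, PyMT-S 2 or PyMT-BM 1 (adjusted p at most 0.0122). The acute-phase protein Orm1 (-6.25, SE 0.33, adjusted p = 9.61e-06), the neutrophil integrin Itgb2l (-6.57, SE 0.77), the granule ficolin Fcnb (-5.90, SE 0.55) and the cytokine Ltb (-3.95, SE 0.355) fell with no call lost when arrays were left out. Fcmr, the IgM receptor, fell (-6.17, SE 0.83), not called without PyMT-Br 2 (adjusted p = 0.0108).

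Markers of cells that a CD11b sort may still hold moved too. Of 7 B cell genes, each read by its brightest probe, only Vpreb3 was called lower, at 4.42, 3.79, 4.00 and 3.96 in BrM against 9.10, 7.08, 8.93 and 8.54 (-4.37, SE 0.41, adjusted p = 0.000345). The summed B cell signal was 239 to 376 in BrM, 7510 and 6680 in PyMT-S 1 and PyMT-S 3, and 737 and 1390 in PyMT-S 2 and PyMT-BM 1. Red cell genes gave no call of 9, although Slc4a1, the band 3 anion exchanger, read 3.82 to 4.97 in BrM, 4.83 in PyMT-S 1 and 10.66 to 13.25 in the other 3 arrays (-6.16, adjusted p = 0.0348). Without PyMT-S 1, 5 of the 9 were called lower. T cell, NK cell, dendritic cell and platelet lists gave no call of 9, 8, 12 and 7 genes. Leaving out PyMT-Br 3 gave 1 T cell call and leaving out PyMT-S 1 gave 1 platelet call. The part of these cells in the differences between groups was not tested.

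Some epithelial genes were higher in BrM, where the implanted cancer cells were untagged. Of 12 measured, 4 were called higher with a median of 0.56 for the list (0.14 after centring on reference genes) and 4 negative differences. The called genes were Krt8, Krt18, Cdh1 and Krt14, with 2 of them called without PyMT-S 2, and Epcam was at or below 3.36 in every array. Krt8 read 8.50, 8.48, 6.20 and 7.79 in BrM and 3.77 to 5.10 in the others (3.12, SE 0.51, adjusted p = 0.00603), lowest in PyMT-Br 3, and its call ended when any 1 array other than PyMT-Br 3 was left out (adjusted p at most 0.0234). Cdh1, E-cadherin, rose by 1.94 (SE 0.27), with a call kept without each array, and Krt14 by 1.72 (SE 0.24), not called without PyMT-Br 4 (adjusted p = 0.011). The list gave 1 call without PyMT-Br 4 and 2 without PyMT-Br 1, PyMT-Br 2 or any 1 spleen array. The summed epithelial signal was 467 to 1030 in BrM and 196 to 267 in the others. Of 12 brain genes 1 was called, the astrocyte-rich aldolase Aldoc (3.18, SE 0.40), and of 11 stromal genes 1, decorin, Dcn (2.74, SE 0.39), not without PyMT-Br 1, PyMT-Br 2 or PyMT-Br 4 (adjusted p at most 0.0146). Aldoc, Dcn, Krt8 and Krt18 were all lowest in PyMT-Br 3 among the BrM arrays. The part of tumor, brain or stromal RNA in the comparison was not tested.

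Immediate early genes, which rise within minutes of handling or stimulation, were higher and uneven among the BrM arrays. Of 20 measured 6 were called higher, and 2 without PyMT-S 2, 3 without PyMT-Br 1 and 1 without PyMT-Br 2, PyMT-Br 4 or PyMT-BM 1. Fosb read 10.85, 8.92, 7.10 and 7.54 in PyMT-Br 1 to 4 and 3.82 to 5.37 in the others (4.22, SE 0.73, adjusted p = 0.00727), not called without PyMT-Br 2, PyMT-Br 4, PyMT-S 1, PyMT-S 2 or PyMT-BM 1 (adjusted p at most 0.0287). The list mean was 10.32 in PyMT-Br 1, 8.77 to 9.15 in the other BrM arrays and 7.33 to 7.86 in the controls. The early gene Egr2, also a macrophage factor, rose by 3.76 (SE 0.41), with a call kept without each array. Of 22 hypoxia and glycolysis genes 4 were called higher, Hif1a, Pfkp, P4ha1 and Slc2a1, and centring on the reference genes left 1 of these calls. The count was 0 without PyMT-Br 1 or PyMT-Br 4, 2 without PyMT-S 2 and 1 without any 1 of the other 5 arrays. No gene of 17 in the cell cycle list was called. Of 21 inflammatory cytokines Il1a alone was called higher (3.35), not without PyMT-Br 2, PyMT-Br 3 or PyMT-BM 1 (adjusted p at most 0.0137), and of 16 complement genes Cd55 alone was called, lower. For Msr1, Slc7a2, Krt8, Cdh1, Aldoc, Dcn, Fabp5, Lss and Hif1a only the brightest probe was called. The same held for Cp, Pfkp, P4ha1, Pparg and Gbp5, and for Prok2, Ms4a7 and Ifi205, which are named below.

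Leaving out PyMT-S 2 could not turn the direction of any called probe, since in all 1225 the BrM values did not overlap the others. The fit of 4 BrM against 3 controls called 921 probes (2.03%), 528 higher (1.17%) and 393 lower (0.868%). The fits shared 791 probes, 64.6% of the 1225 and 85.9% of the 921. The 434 probes lost, 258 higher and 176 lower, all stayed at an adjusted p of at most 0.0258, and 130 were gained. Only 25 of the 1225 moved by over 1.5 times in fold. Leaving out PyMT-S 1, PyMT-S 3 or PyMT-BM 1 instead called 862, 1141 or 650 probes, of which 769, 927 or 615 were shared with all 8 arrays. A loss of calls was thus not particular to PyMT-S 2. In 718 of the 1225, PyMT-S 2 lay outside the range of the other 3 controls. It was the control farthest from BrM in 271 of the higher and 207 of the lower probes, and the nearest in 145 and 96. Such counts were not made for the other controls, and any 1 of 4 like arrays would often lie at an end.

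The 434 probes lost lay in 256 genes, of which the 6 that moved most are described. As a large move selects genes for their value in PyMT-S 2, these values are a description. Among them Ccno, Adgrg3 and Prok2 were low in BrM and highest among the controls in PyMT-S 2 or PyMT-BM 1. Prok2, a chemokine-like gene of granulocytes, read 1.86 to 3.43 in BrM and 6.87, 9.21, 5.48 and 9.66 in the others (-5.10, SE 0.82, adjusted p = 0.00539), and -4.63 without PyMT-S 2 (adjusted p = 0.0134). Ms4a7 (2.97, SE 0.54), Egr1 (3.85, SE 0.61) and Ifi205 (4.15, SE 0.66) were high in BrM and lowest in PyMT-S 2, and fell to 2.49, 3.42 and 3.71 without it (adjusted p = 0.0123, 0.0104 and 0.0109). Calls of all 6 also ended without PyMT-Br 2, PyMT-Br 4 or PyMT-BM 1, with an adjusted p of at most 0.034.

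The 130 probes gained lay in 52 genes. The 6 of these with the largest differences were Mzb1, Ly6d, Blk, Pou2af1, Slc45a3 and Cd79b, most of them known from B lineage cells. As a gained call selects genes for their value in PyMT-S 2, these values too are a description. Cd79b, a part of the B cell receptor, read 7.46, 6.63, 7.23 and 6.38 in BrM, 12.41 and 12.21 in PyMT-S 1 and PyMT-S 3, and 8.80 and 9.60 in PyMT-S 2 and PyMT-BM 1. Its difference was -3.83 with PyMT-S 2 (SE 0.75, adjusted p = 0.0137) and -4.48 without it (adjusted p = 0.00495). For Blk, a B cell kinase, these values were -4.02 (adjusted p = 0.0229) and -4.86 (adjusted p = 0.00502) for its brightest probe, while another probe of Blk was called with all 8 arrays (-5.30, adjusted p = 0.00848). The second probe of Adgrg3 was called with all 8 arrays as well (-3.76, adjusted p = 0.00961). B cell calls rose from 1 to 3 of 7 without PyMT-S 2 and to 6 without PyMT-BM 1 as well.

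With PyMT-S 2 and PyMT-BM 1 both left out, the controls were the 2 spleen-like arrays. That fit called 1108 probes (2.45%), 499 higher and 609 lower, and shared 595 with the fit of 8 arrays, 48.6% of the 1225 and 53.7% of the 1108. Of the 513 probes gained 351 were lower in BrM, and 241 of the 1225 moved by over 1.5 times in fold. Calls fell to 2 of 10 for primary granule genes, 6 of 14 for late granule genes and 0 of 12 for mature neutrophil genes, although the list medians stayed at -2.96, -3.76 and -2.04, while 7 of 8 candidate promoter genes stayed called. In the fit without PyMT-S 2 alone, Fcrls, Arg1 and Ccl7 moved little, from 9.25, 8.91 and 7.40 to 9.20, 8.88 and 7.36. Mmp14, whose lowest control value was that of PyMT-S 2, moved more, from 6.60 to 6.08.

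**Figure D4:**
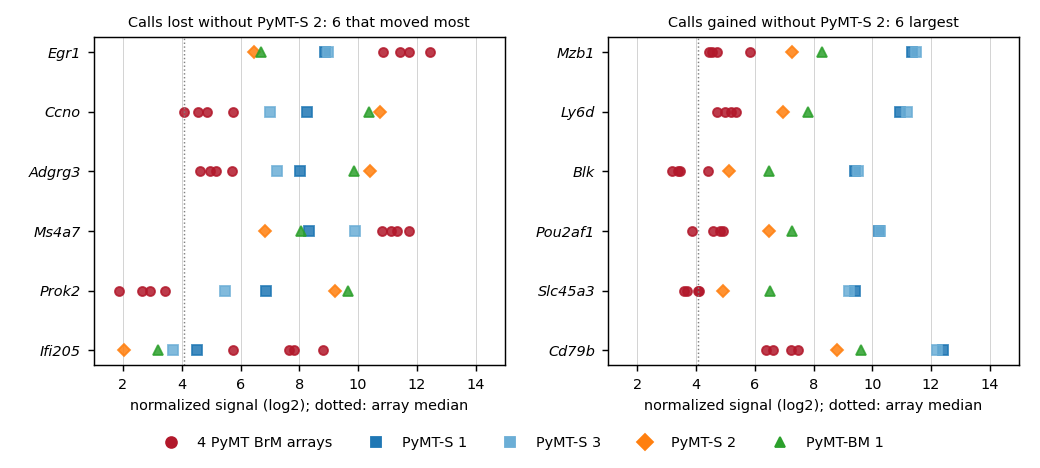
Normalized signal (log2, horizontal axis) in each array of 6 of the 256 genes with a call lost without PyMT-S 2 (left, those that moved most) and 6 of the 52 with a call gained (right, those with the largest differences), 1 probe a gene, with circles for the 4 BrM arrays. PyMT-S 2 and PyMT-BM 1 lie together at one end of the controls on the left and nearest to BrM on the right, as for Cd79b at 8.80 and 9.60 beside 12.41 and 12.21. Both sets were picked by what leaving out PyMT-S 2 did, so its place is a description.

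The 4 BrM arrays differed among themselves less than the 4 controls did, with a median SD over probes of 0.33 and 0.453. PyMT-Br 1 was the most distinct, with the highest value of the 4 in 282 of the 729 probes called higher and the lowest in 233 of the 496 called lower. Its mean over 20 interferon genes was 6.90, beside 7.77, 8.63 and 8.03 in PyMT-Br 2 to 4 and 6.79 to 7.10 in the controls. Of these genes, 2 were called higher, the guanylate-binding proteins Gbp3 (2.54, SE 0.39) and Gbp5 (2.25, SE 0.34), 3 without PyMT-Br 1, 1 without PyMT-S 2 and none without any 1 of the other BrM arrays or PyMT-BM 1 (adjusted p at most 0.0182). Gpnmb, a gene of lipid-associated macrophages, read 7.96 in PyMT-Br 1 and 11.33, 11.99 and 11.65 in PyMT-Br 2 to 4, against 6.81 to 8.28 in the controls (3.21, SE 0.78, adjusted p = 0.035), and was called only without PyMT-Br 1. Neutrophil granule genes varied most. The SD among the BrM arrays was largest for Ngp, Camp, Ltf, Mpo, the stefin Stfa1 and Fosb among the called genes.

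**Figure D5:**
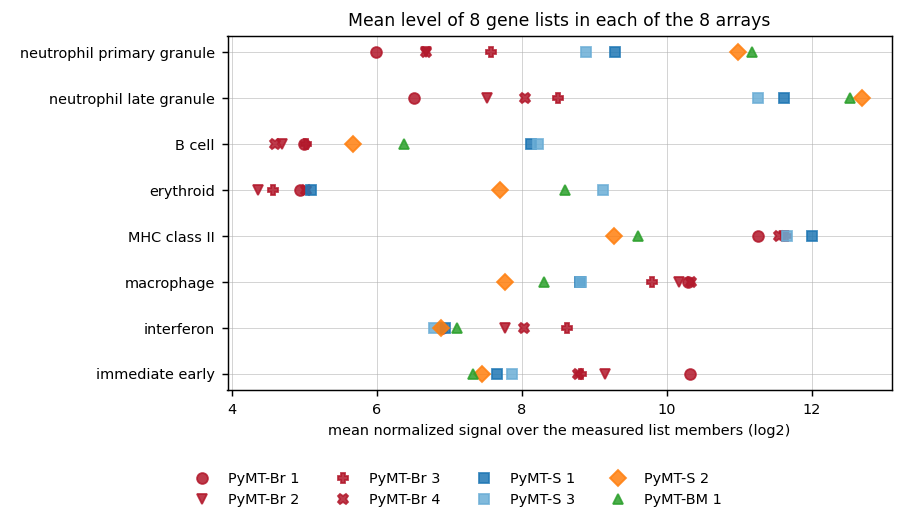
Mean normalized signal (log2, horizontal axis) over the measured members of 8 gene lists, in each of the 8 arrays. PyMT-S 2 and PyMT-BM 1 share high neutrophil and low MHC class II means (9.27 and 9.60), and PyMT-Br 1 is highest of all arrays for immediate early genes (10.32) and lowest of the BrM arrays for interferon genes (6.90).

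The PyMT difference was last set against that of EO771, another breast cancer line, whose 2 BrM arrays had only naïve spleen and bone marrow (4 arrays) as controls. The naïve bone marrow arrays carry the codes bm260_2 and bm260_2b, and an EO771 BrM array the code b114/118. What these codes mean is not given. The fit took all 14 arrays as separate replicates, as the methods call them. The difference of the differences was called for 59 probes (0.13%), 18 more positive and 41 more negative in PyMT, and 4028 passed an unadjusted p under 0.05. Model and control mice cannot be told apart in this test. Mgp and Mmp2 were higher in the PyMT than the EO771 comparison by 5.67 (SE 0.78) and 3.15 (SE 0.41), and Ccl17 by 3.71 (SE 0.55). Mmp2 read 5.91 and 6.50 in EO771 BrM, compared with 8.90 to 9.81 in PyMT BrM. The interferon-induced genes Rsad2 (-4.55, SE 0.61), Oasl1 (-4.41, SE 0.49) and Mx1 (-4.36, SE 0.60) were more negative in PyMT. Mx1 read 9.88 and 10.31 in EO771 BrM but 4.66 to 6.59 in PyMT BrM. Xist and Eif2s3y, which are expressed from the inactive X and the Y chromosome, also differed (4.79 and -5.91). In the EO771 BrM arrays Xist read 3.04 and 3.61 and Eif2s3y 8.76 and 8.77, whereas in the 8 PyMT arrays Xist lay at 6.45 to 8.35 and Eif2s3y at 4.94 to 6.14, with overlapping groups. The part of this in the test was not examined. Leaving out either EO771 BrM array reduced the 59 calls to 2 or 11, and any other single array but PyMT-Br 3 to between 19 and 37.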

How the data were processed

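Total RNA of sorted GFP+CD11b+ cells was biotin-labelled and hybridized to Illumina MouseWG-6 v2 BeadChips. The authors deposited quantile-normalized log2 values, and their processing notes name GenomeStudio 2011.1 and limma. The background correction is not given in the sources used here, and detection p-values were not used. The deposited log2 values were used as given, with no further normalization or filter. Groups came from the sample titles. The methods list 4 PyMT spleens, of which 3 were used here and the fourth was not analysed here. Quantile normalization gives every array the same distribution, so a difference is relative to the other probes. The number of arrays limits the precision, and p-values measure the spread between these arrays.

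The 4 BrM and 4 spleen/bone marrow arrays were fitted with limma 3.58.1 in R 4.3.3 (lmFit and eBayes), by a two-sided test whose p-values were adjusted (Benjamini-Hochberg) across the 45281 probes. The threshold for a call was 0.01. The difference between the PyMT and EO771 comparisons was fitted on all 14 arrays. Of the probes, 34885 had 1 gene symbol in the platform annotation, 18 had several and 10378 (22.9%) had none. The brightest probe stood for a gene, except that for the largest changes the brightest qualifying probe did.

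Named genes were the 12 largest rises and 12 largest falls, and the candidate promoter and sort genes. Up to 3 called rises and falls of each of 43 lists (580 genes listed, not all measured) were added. So were the 6 genes lost and the 6 gained without PyMT-S 2, and the 6 most variable in BrM. The 5 largest called differences from EO771 in each direction were named as well. Members and lists were chosen with earlier results of these data known. Adgre1, C1qa, Epcam, P2ry12, Slc4a1, Mrc1, Gpnmb, Nos2, Cxcl9, Ccl2 and Ccl3 were named after their values were seen. Alternatives were other centring, filters, variance models, control sets, blocks and leaving out each array. On simulated data for this comparison with all 45281 probes, 4%, 67%, 99% and 98% of probes changed by 1, 2, 3 and 4 log2 units were called. As few probes were changed and their noise was drawn independently, these shares need not hold for the data. The smallest called difference in the data was 1.06. Python 3.11.15 made the promoter search and figures.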

Additional observations from a re-analysis of the deposited data

Results flagged for a closer look

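Values of single BrM arrays that lay far from the other 3 were listed by Dixon's test for 4 values, which flags about 1 in 20 groups by chance. The 12 genes so listed are among the 132 named here, and their number was not set against that share. Among the 12, of which Cxcl9, Gpnmb and Slc4a1 were named after their values were seen, PyMT-Br 1 stood apart for 9. Its signal was 2.94 for Itgad, 5.56 for Arg2, 10.07 for Cxcl9, 7.96 for Gpnmb and 5.765 for Oasl1, the lowest of the 4 for each. It was highest for Itgam at 7.94, Egr2 at 10.07, Slc4a1 at 4.97 and the cell cycle inhibitor Cdkn1a at 11.43. All BrM values of Itgad lay below the array median of 4.06. PyMT-Br 3 read 5.61 for Dcn, the lowest, and 9.52 for Pfkp, the highest. PyMT-Br 2 read 9.40 for Tmem273. The immediate early mean was highest and the interferon mean lowest in PyMT-Br 1 among the BrM arrays, at 10.32 and 6.90, and their part in these values was not tested.

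The difference between the PyMT and EO771 comparisons passed the test for 11 genes named here. More positive in PyMT were Col14a1 (5.76), Mgp (5.67), Xist (4.79), Tmem273 (4.17), Ccl17 (3.71) and Mmp2 (3.15). More negative were Eif2s3y (-5.91), the X-linked homeobox gene Rhox5 (-5.67), Rsad2 (-4.55), Oasl1 (-4.41) and Mx1 (-4.36). Rhox5 read 10.21 and 9.96 in EO771 BrM. The EO771 controls came from mice without tumors, so model and control mice cannot be told apart, and calls fell from 59 to 2 or 11 without either EO771 BrM array.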

How the results depend on the processing

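The count of 1225 called probes became 2094 without dim probes, 1961 with a mean-variance trend, 2771 with the spread taken from all 14 arrays and 3285 at an adjusted p under 0.05. It became 759 with spleen and bone marrow given equal weight, 650 with spleen arrays only, 695 with probes of a gene averaged, 170 when tested against a 2-fold change and 362 by the methods' t-test after Benjamini-Hochberg adjustment (9311 at an unadjusted p under 0.05). Leaving out 1 array gave 467 to 1141 calls. The 106 called genes of the lists became 31 by the methods' t-test, 40 against a 2-fold change, 66 with spleen arrays only, 162 with the spread of all 14 arrays, 179 at an adjusted p under 0.05 and 57 to 99 with 1 array left out. The 791 probes shared with and without PyMT-S 2 became 1617 with a trend and 2453 at an adjusted p under 0.05. The 59 calls against EO771 became 2 to 51 with 1 array left out. In the fits with 1 control array for bone marrow that array is assumed to vary like the others.

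Whether arrays of the same title number or code were paired could not be settled, as the spleen-like and marrow-like controls could hide it. Deviations from the group means correlated at 0.028, -0.011, 0.03 and -0.056 for arrays of the same title number and at -0.056, 0.061, -0.011 and -0.012 for arrays of the same title code. With the number as a replicate block 118 probes and 30 list genes were called, with the title code as block 142 and 41, and with the stem of the code as block 794 probes. Within stem P alone 70 probes and 23 list genes were called, and within stem PM, with a single control array, 0 and 0.

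Of the 100 called genes among 132 named, none changed direction in 2799 alternative values. Fits that only left out or weighted arrays could not change it, as BrM values of called probes did not overlap the others. Among genes that were not called, 7 changed direction. Itgam read -0.23 centred on reference genes (-0.059 without Gusb, an alternative chosen after seeing the data), -0.13 with equal weights and -0.505 within stem P, and ranged from -0.34 to 0.71 with 1 array left out. Ptprc read -0.080 centred on reference genes and -0.028 within stem P, and Spi1 0.36 within stem PM. Tyrobp read 0.14 without PyMT-S 2 and PyMT-BM 1 and 0.45 within stem PM, and ranged from -0.22 to 0.085 with 1 array left out. Eif2s3y read 0.065 with array weights, 0.11 with equal weights and 0.43 within stem PM, and ranged from -0.17 to 0.22 with 1 array left out. Rsad2 read 0.052 with spleen arrays only, 0.26 without PyMT-S 2 and PyMT-BM 1, 0.11 with the code block and 0.14 within stem P, and ranged from -0.50 to 0.057 with 1 array left out. Oasl1 read -0.073 centred on reference genes. The cause was not tested.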
